A study of Homo sapiens with 6 samples.

Results

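The genes described here lie on chromosome band 17q21 between STAT5B and PHB, and were chosen by their measured differences: an earlier look at these 6 libraries found the stretch higher in resistant 18 than in control 18. All 57 listed genes were found among the 23619 symbols measured, and 56 of them reached 1 FPKM (a fragment count corrected for the length of the transcript and the depth of the library) in at least 3 of the 6 libraries, as did 11307 genes in all. The libraries were 3 fludarabine-resistant pools and 3 control pools of HG3, a lymphoblastoid B cell line derived from chronic lymphocytic leukaemia, numbered 17, 18 and 28 in both groups, with 1 library per pool and group. Fludarabine is a purine nucleoside analogue used against this leukaemia. The design text calls the controls parental to the resistant cells. The title names transposon mutagenesis, in which mobile DNA disrupts genes at random, but the labels do not say which pools carry insertions, what dose or time of drug selected them, or how many clones a pool holds. In such bulk samples, fewer cells of a type and less RNA per cell cannot be told apart.

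Band 17q21 is gene-dense, and its genes do not form one pathway. STAT5A, STAT5B and STAT3 carry cytokine signals from the membrane to the nucleus, BECN1, NBR1 and CALCOCO2 act in autophagy, TUBG1 and TUBG2 nucleate microtubules, and EFTUD2 and DHX8 are parts of the splicing machinery. Others encode subunits of complexes whose remaining subunits come from other chromosomes, such as CDC27 of the anaphase-promoting complex or VPS25 and SNF8 of the ESCRT-II sorting complex. What the genes share by definition is their place on the chromosome. The files give RNA levels only, and the number of copies of the region was not tested.

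Relative sequencing depth, read from the steps of low values, lay between 1.06 and 1.33 in the resistant libraries and between 1 and 1.24 in the controls, with control 17 taken as 1. All 7 B cell markers examined were present, with a summed level of 860.1 to 1143 FPKM in resistant libraries and 715 to 1045 FPKM in controls. Of the markers of other cell types, 1 of 6 for T cells (CD5, which this leukaemia also expresses), 0 of 4 for NK cells, 2 of 5 for myeloid cells, 0 of 4 for erythroid cells (3 at 0 in every library), 0 of 3 for fibroblasts and 2 of 4 for epithelial cells reached 1 FPKM in 3 libraries. Each list summed to at most 22.7 FPKM in any library, and the myeloid sum was highest in resistant 18, at 8.22 FPKM, against 2.38 to 3.36 FPKM in controls. Its part in the results was not tested. Resistant 18 stood apart from all others: it scored 58.8 on the first principal component, which held 41.4% of the variance, while the other 5 libraries lay between -33.5 and 6.81. Every value of pool 18 below therefore rests on 1 library that also differed from the rest across the genome.

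The median of the 56 genes was 0.51 higher in resistant 18 than in control 18 on the log2(FPKM + 1) scale, against 0.05 over all 11307 tested genes. A total of 46 of the 56 had a positive difference, 28 exceeded 0.5, 10 exceeded 1, and 1 lay below -0.5. Over all tested genes 21.3% exceeded 0.5 in that pool, 5.41% exceeded 1, 53.4% were positive and 19.7% lay below -0.5. These values chose the genes, so they describe them and carry no test. With the median of every library set equal, 20 of the 56 exceeded 0.5 and 2 lay below -0.5, against 16.8% and 23.5% of all tested genes.

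In the other pools the same genes lay around 0. Their median was -0.04 in pool 17 and -0.08 in pool 28, with 26 and 25 of the 56 above 0. In pool 17, 2 of the 56 exceeded 0.5 and 6 lay below -0.5, against 9.94% and 9.3% of all tested genes. In pool 28, 12 exceeded 0.5 and 8 lay below -0.5, against 15.7% and 15.8%. Between controls the median of the 56 genes was -0.02 for control 18 minus control 17 and -0.02 for control 18 minus control 28. The differences between controls were also among the values used to choose the genes, so these medians are a description. Set against the other resistant libraries instead, resistant 18 was higher by a median of 0.45 than resistant 17 and of 0.40 than resistant 28. Over all tested genes those medians were 0.09 and 0.08, and over the rest of chromosome 17 they were 0.30 and 0.28. Resistant 18 was the highest of the 6 libraries for 36 of the 56 genes, against 48.5% of the rest of chromosome 17 and 35.4% of all tested genes.

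**Figure D1:**
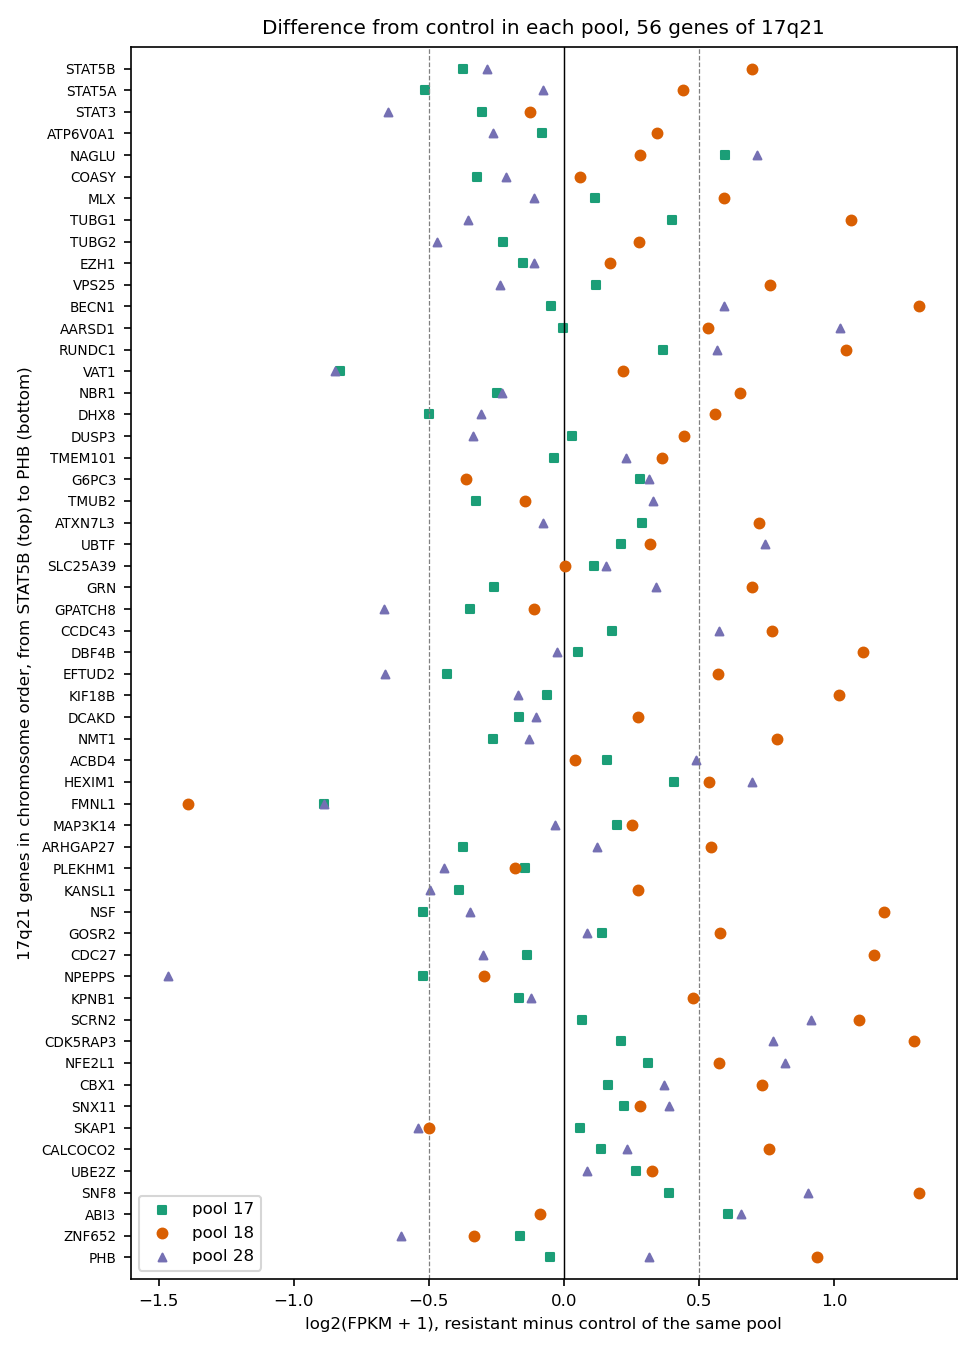
Difference between resistant and control libraries on the log2(FPKM + 1) scale in pools 17, 18 and 28 for the 56 tested genes, 1 row per gene in chromosome order; dashed lines mark 0.5 in both directions. Pool 18 lies to the right of the other pools for most rows, with FMNL1 (-1.39) and SKAP1 (-0.50) among the exceptions.

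The STAT genes at the start of the stretch differed from each other in pool 18. STAT5B, a transcription factor activated by cytokine receptors, had 23.8, 37.8 and 26.5 FPKM in resistant 17, 18 and 28, against 31.1, 22.9 and 32.6 FPKM in their controls. Its highest value was in resistant 18 and its lowest in control 18, with a pool 18 difference of 0.70. STAT5A, its close paralogue, had 78.3, 101 and 91.9 FPKM in resistant 17, 18 and 28, against 112, 73.9 and 97.1 FPKM in their controls. Here control 17 was above resistant 18, and the difference in pool 18 (0.44) went with a control 18 that was the lowest of the 6 libraries. STAT3, which carries signals of the interleukin-6 family, had 22.7, 27.02 and 24.6 FPKM in resistant 17, 18 and 28, against 28.3, 29.6 and 39.2 FPKM in their controls. All 3 resistant libraries lay below all 3 controls, and the difference in pool 18 was -0.13. Such separation of the groups is given here and below as a description. Its share over all tested genes was not counted, so it cannot be called unusual.

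Genes of autophagy held the largest value. BECN1, a subunit of the lipid kinase complex that starts autophagosomes, had 37.5, 77.1 and 43.2 FPKM in resistant 17, 18 and 28, against 38.8, 30.4 and 28.3 FPKM in their controls. Resistant 18 was 2.54-fold above control 18 and well above the other 5 libraries. NBR1, a receptor that brings ubiquitinated cargo to autophagosomes, had 20.1, 36.9 and 21.7 FPKM in resistant 17, 18 and 28, against 24.1, 23.1 and 25.7 FPKM in their controls. Its difference was 0.65 in pool 18 and negative in the other pools. CALCOCO2, a receptor for invading bacteria and damaged mitochondria, had 42.5, 65.6 and 42.7 FPKM in resistant 17, 18 and 28, against 38.5, 38.3 and 36.2 FPKM in their controls. The 5 libraries other than resistant 18 lay close together for this gene. PLEKHM1, which helps autophagosomes fuse with lysosomes, had 2.85, 3.12 and 3.13 FPKM in resistant 17, 18 and 28, against 3.26, 3.67 and 4.62 FPKM in their controls. All resistant libraries lay below all controls, and the difference in pool 18 was -0.18.

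Among lysosomal genes, GRN, which encodes the lysosomal and secreted protein progranulin, had 63.3, 87.6 and 96.4 FPKM in resistant 17, 18 and 28, against 75.9, 53.7 and 76.0 FPKM in their controls. Resistant 28 was the highest library, and the difference in pool 18 (0.70) again went with a low control 18. NAGLU, a lysosomal enzyme that degrades heparan sulfate, had 12.3, 12.8 and 11.04 FPKM in resistant 17, 18 and 28, against 7.77, 10.3 and 6.35 FPKM in their controls. All resistant libraries lay above all controls, with differences of 0.60, 0.28 and 0.71 in pools 17, 18 and 28. ATP6V0A1, a membrane subunit of the proton pump that acidifies lysosomes, differed by -0.08, 0.34 and -0.26.

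Genes of the spindle and of cell division were among those furthest from control 18. TUBG1, the main gamma-tubulin that nucleates microtubules, had 15.5, 31.7 and 9.77 FPKM in resistant 17, 18 and 28, against 11.5, 14.7 and 12.8 FPKM in their controls, 2.17-fold higher in resistant 18 than in control 18. TUBG2, its nearby paralogue, was far lower in level with 1.62, 1.78 and 1.08 FPKM in resistant 17, 18 and 28, against 2.07, 1.30 and 1.88 FPKM in their controls. Resistant 18 was not its highest library, and the difference in pool 18 was 0.28. CDC27, a core subunit of the anaphase-promoting complex, had 11.8, 33.2 and 11.5 FPKM in resistant 17, 18 and 28, against 13.1, 14.4 and 14.4 FPKM in their controls. The 5 libraries other than resistant 18 stayed between 11.5 and 14.4 FPKM. DBF4B, an activator of the replication kinase CDC7, had 1.98, 4.19 and 1.97 FPKM in resistant 17, 18 and 28, against 1.88, 1.405 and 2.02 FPKM in their controls. KIF18B, a kinesin that shortens spindle microtubules, had 2.74, 5.27 and 1.94 FPKM in resistant 17, 18 and 28, against 2.90, 2.10 and 2.30 FPKM in their controls. Both were highest in resistant 18, and both had low levels in all libraries. A list of cell cycle genes off chromosome 17 was added after the values had been seen. All 19 of its tested genes were higher in resistant 18 than in control 18, with a median of 1.02. Over all tested genes 53.4% were higher in that pool. The list was chosen with the values known, so its count is a description. The part of these cell cycle genes in the values of the 17q21 genes was not tested.

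**Figure D2:**
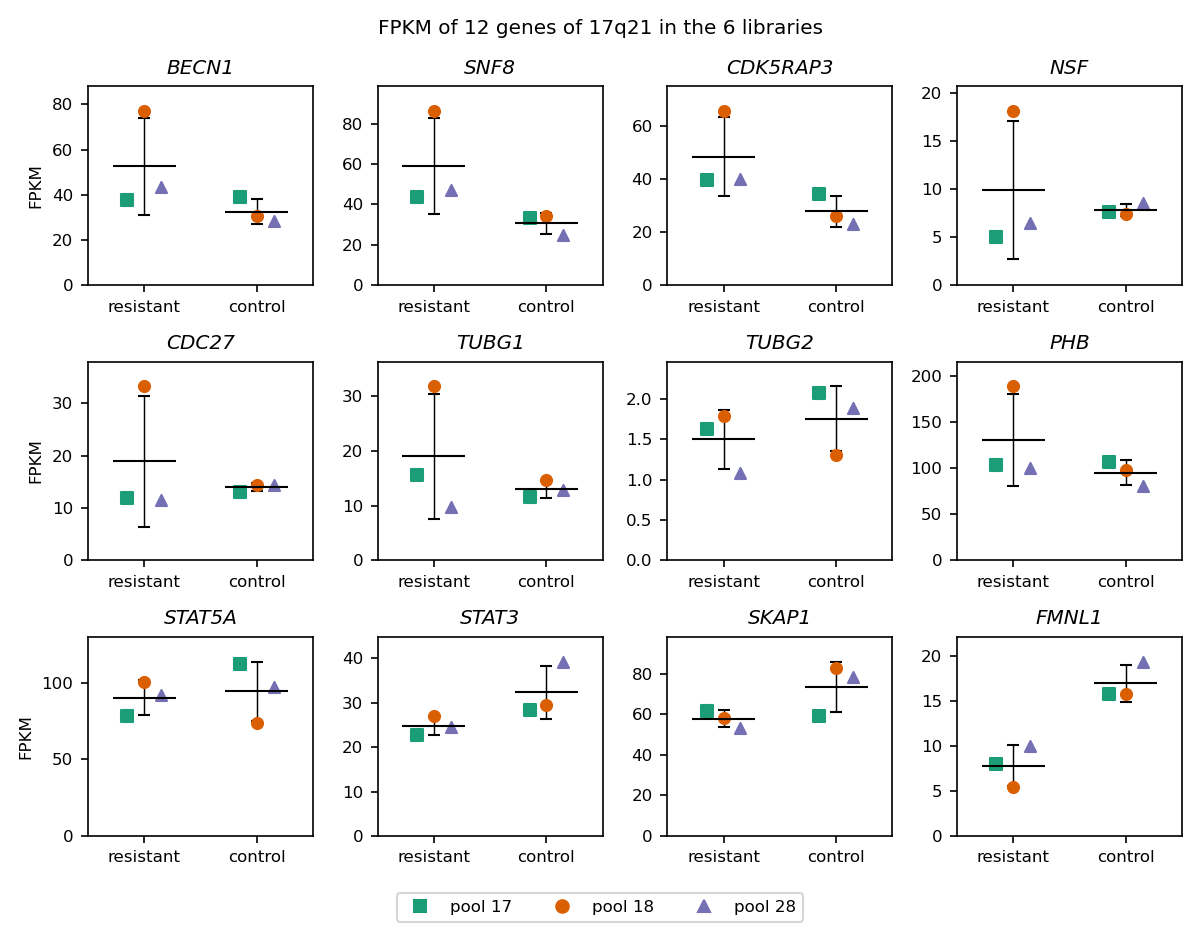
FPKM of 12 of the genes in each library, resistant left of control in every panel; symbols mark the pool, the line is the mean and the bar 1 SD over 3 libraries. In the panels of BECN1, SNF8, CDK5RAP3, NSF, CDC27, TUBG1 and PHB the resistant 18 point lies above the other 5, while for FMNL1 all 3 resistant points lie below all 3 controls.

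Membrane traffic genes included subunits of ESCRT-II and genes of membrane fusion. SNF8, an ESCRT-II subunit that sorts ubiquitinated receptors into vesicles, had 43.6, 86.4 and 47.1 FPKM in resistant 17, 18 and 28, against 33.05, 34.1 and 24.7 FPKM in their controls. All 3 resistant libraries lay above all 3 controls, and resistant 18 was 2.53-fold above control 18. VPS25, another ESCRT-II subunit, had 92.7, 181 and 86.8 FPKM in resistant 17, 18 and 28, against 85.3, 106 and 102 FPKM in their controls, and here only resistant 18 was outside the range of the controls. NSF, the ATPase that takes SNARE complexes apart after fusion, had 4.96, 18.1 and 6.48 FPKM in resistant 17, 18 and 28, against 7.56, 7.39 and 8.52 FPKM in their controls. Resistant 17 and 28 were its lowest libraries and resistant 18 its highest. GOSR2, a Golgi SNARE, differed by 0.58 in pool 18, and SNX11, a sorting nexin of endosomes, by 0.28. KPNB1, the importin that carries proteins into the nucleus, had 93.6, 156 and 94.3 FPKM in resistant 17, 18 and 28, against 105, 112 and 103 FPKM in their controls.

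Among genes of splicing and transcription, EFTUD2, a GTPase of the U5 particle of the spliceosome, had 30.97, 68.6 and 32.4 FPKM in resistant 17, 18 and 28, against 42.2, 45.9 and 51.8 FPKM in their controls. Resistant 17 and 28 lay below every control and resistant 18 above every control. DHX8, the helicase that releases spliced mRNA, had 26.03, 42.6 and 28.0 FPKM in resistant 17, 18 and 28, against 37.2, 28.6 and 34.9 FPKM in their controls, with differences of -0.50, 0.56 and -0.31 in pools 17, 18 and 28. For both genes resistant 18 was the highest library and resistant 17 the lowest. ATXN7L3, which anchors the deubiquitinase module of the SAGA coactivator, differed by 0.72 in pool 18, and CBX1, a heterochromatin protein that reads methylated histone H3, by 0.73. MLX, a partner of glucose-sensing transcription factors, had 17.5, 26.4 and 16.7 FPKM in resistant 17, 18 and 28, against 16.1, 17.1 and 18.2 FPKM in their controls. The 5 libraries other than resistant 18 lay close together, and the difference in pool 18 was 0.59. HEXIM1, which holds the elongation factor P-TEFb inactive, had 4.39, 3.11 and 4.68 FPKM in resistant 17, 18 and 28, against 3.06, 1.83 and 2.51 FPKM in their controls, and was higher in every resistant library than in every control. NFE2L1, a factor that drives proteasome genes when the proteasome is impaired, had 115, 111 and 137 FPKM in resistant 17, 18 and 28, against 92.6, 74.6 and 77.0 FPKM in their controls, also without overlap of the groups. UBTF, which starts ribosomal RNA transcription, differed by 0.32 in pool 18. KANSL1, a scaffold of the NSL acetyltransferase complex, had 6.498, 11.7 and 7.67 FPKM in resistant 17, 18 and 28, against 8.81, 9.52 and 11.2 FPKM in their controls, and its pool 18 difference was 0.27. EZH1, a histone H3 methyltransferase of Polycomb, had 6.40, 7.54 and 6.76 FPKM in resistant 17, 18 and 28, against 7.21, 6.60 and 7.38 FPKM in their controls, and its pool 18 difference was 0.17. For both, resistant 18 was the highest library by a small margin. GPATCH8 had 4.23, 5.32 and 4.22 FPKM in resistant 17, 18 and 28, against 5.65, 5.82 and 7.28 FPKM in their controls. The zinc finger gene ZNF652 had 2.198, 2.51 and 1.70 FPKM in resistant 17, 18 and 28, against 2.58, 3.42 and 3.10 FPKM in their controls. For both, all resistant libraries lay below all controls, and the pool 18 differences were -0.11 and -0.33. SP2, a transcription factor of the Sp family, was the 1 listed gene under the filter, with 0.344, 0.103 and 0.429 FPKM in resistant 17, 18 and 28, against 0.293, 0.590 and 1.51 FPKM in their controls. TUBG2 was the nearest gene inside the filter.

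Among signalling and cytoskeletal genes, FMNL1, a formin of blood cells that builds actin filaments, had 8.05, 5.42 and 9.998 FPKM in resistant 17, 18 and 28, against 15.7, 15.8 and 19.4 FPKM in their controls, and was lower in the resistant library of every pool, with differences of -0.89, -1.39 and -0.89 in pools 17, 18 and 28 and no overlap of the groups. SKAP1, an adaptor of T cell receptor and integrin signalling, had 61.8, 58.3 and 53.5 FPKM in resistant 17, 18 and 28, against 59.3, 82.8 and 78.3 FPKM in their controls, lower in resistant 18 and 28 than in their controls and nearly equal in pool 17. MAP3K14, the NIK kinase of the non-canonical NF-kB pathway, had 7.81, 8.52 and 8.16 FPKM in resistant 17, 18 and 28, against 6.69, 6.99 and 8.37 FPKM in their controls. Its levels lay close together in all libraries. ARHGAP27, a GTPase-activating protein, differed by 0.55 in pool 18, and the phosphatase gene DUSP3 by 0.45. ABI3, an actin regulator of blood cells, had 86.1, 57.1 and 73.6 FPKM in resistant 17, 18 and 28, against 56.2, 60.8 and 46.4 FPKM in their controls, and was higher in resistant 17 and 28 than in their controls and not in resistant 18.

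The remaining genes serve metabolism, protein modification or less defined roles. PHB, which encodes prohibitin of the inner mitochondrial membrane, had 103, 189 and 100.4 FPKM in resistant 17, 18 and 28, against 107, 98.0 and 80.4 FPKM in their controls, 1.93-fold higher in resistant 18 than in control 18. NMT1, which attaches myristate to proteins, had 52.9, 97.4 and 53.5 FPKM in resistant 17, 18 and 28, against 63.6, 55.9 and 58.6 FPKM in their controls. Both were highest in resistant 18, and the next library was control 17 for both. CDK5RAP3, a subunit of the UFM1 ligase, had 39.7, 65.6 and 39.8 FPKM in resistant 17, 18 and 28, against 34.2, 26.1 and 22.9 FPKM in their controls. RUNDC1 had 5.48, 7.75 and 4.96 FPKM in resistant 17, 18 and 28, against 4.03, 3.25 and 3.02 FPKM in their controls. SCRN2 had 17.8, 25.9 and 20.1 FPKM in resistant 17, 18 and 28, against 16.9, 11.6 and 10.2 FPKM in their controls. In each of these 3 genes all resistant libraries lay above all controls, and resistant 18 was the highest. CALCOCO2, CBX1, CCDC43, UBE2Z and UBTF were also higher in every resistant library than in every control. The share of all tested genes that separate in this way was not counted. The difference in pool 18 was 0.77 for CCDC43, 0.53 for the aminoacyl-tRNA editing gene AARSD1, 0.36 for TMEM101, 0.33 for the ubiquitin-conjugating enzyme UBE2Z, and 0.27 for DCAKD. VAT1 had 4.18, 6.93 and 5.47 FPKM in resistant 17, 18 and 28, against 8.21, 5.82 and 10.7 FPKM in their controls, lower in resistant 17 and 28 than in their controls and higher in resistant 18. The difference was 0.06 for COASY, which makes coenzyme A, 0.04 for ACBD4 and 0.00 for SLC25A39, the mitochondrial glutathione carrier. The aminopeptidase gene NPEPPS had 9.20, 16.9 and 8.65 FPKM in resistant 17, 18 and 28, against 13.7, 20.9 and 25.6 FPKM in their controls. It was lower in the resistant library of every pool, most in pool 28. G6PC3, a glucose-6-phosphatase, had 3.62, 3.64 and 4.27 FPKM in resistant 17, 18 and 28, against 2.80, 4.98 and 3.23 FPKM in their controls, and TMUB2 had 5.58, 5.34 and 6.67 FPKM in resistant 17, 18 and 28, against 7.25, 6.01 and 5.10 FPKM in their controls. The pool 18 differences of these 3 genes were -0.29, -0.36 and -0.15.

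Some of these levels are less certain because sequence is shared. Of the 50-base words in its protein-coding transcripts, AARSD1 shared 90.3% with a read-through transcript of its locus, CDK5RAP3 70.2% with another annotated gene, AC018521.1, PHB 44.1%, TUBG1 30.6% (mostly with TUBG2), PLEKHM1 29.1% with its pseudogene, BECN1 28.6% with CNTD1 and PSME3, NPEPPS 27.8% and NSF 27.7% with the pseudogene NSFP1. The labels do not say how such fragments were assigned. Among the 40 genes that shared under 10%, 19 exceeded 0.5 in pool 18, with a median of 0.46.

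Pools 17 and 28 hold libraries other than resistant 18 and control 18. Their differences, and those between controls, were also among the values used to choose the genes. The p-values below therefore describe the genes and are not an independent test of them. In limma on resistant 17 and 28 against control 17 and 28, 0 of the 56 genes passed an adjusted p of 0.05, and 18 of 11307 genes did (0.159%). At an unadjusted p under 0.05 there were 12 of 56 (21.4%), against 18.2% of all tested genes. Of the 12, 6 were higher and 6 lower, against 8.91% and 9.25% of all tested genes. FMNL1 had the smallest p, with a log2 difference of -0.89 (SE 0.19, limma adjusted p = 0.182, unadjusted p = 0.00419). The others that were lower were VAT1 at -0.84, NPEPPS at -0.99, EFTUD2 at -0.55, GPATCH8 at -0.51 and DHX8 at -0.40. Those that were higher were NAGLU at 0.66, ABI3 at 0.63, SNF8 at 0.65, HEXIM1 at 0.55, NFE2L1 at 0.56 and RUNDC1 at 0.47 (limma adjusted p from 0.200 to 0.271 over these 11). Leaving out resistant 17 or resistant 28 gave 30 calls over all genes, and leaving out control 17 or control 28 gave 3. The 12 became 3 without resistant 17, 5 without resistant 28, 19 without control 17 and 4 without control 28. A p that misses the threshold does not show that a gene did not differ.

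With all 6 libraries, where pool 18 itself enters, 0 of the 56 passed and 4 of 11307 genes did (0.0354%). The smallest adjusted p among the 56 was 0.179, for FMNL1, at a log2 difference of -1.06 (SE 0.23, limma). At an unadjusted p under 0.05 there were 10 of 56, against 13.1% of all tested genes. The 10 became 2 without control 28, 5 without control 18 and 17 without resistant 18, 8 of these higher and 9 lower. Of the 10, 8 were higher and 2 lower, against 5.99% and 7.14% of all tested genes. The genes were chosen for high values in pool 18, which favours higher calls, so these counts and p-values are a description. Over all genes 13 passed without resistant 18 and 8 without resistant 17. Across the 56 genes the differences of pools 17 and 28 had a Spearman correlation of 0.67, and those of pool 18 one of 0.23 with pool 17 and 0.35 with pool 28, given as descriptions over genes that share libraries.

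The listed genes were not all the genes of their stretch. Another 39 tested genes lie between STAT5B and PHB in RefSeq order, and their median in pool 18 was 0.15, with 14 above 0.5 (35.9%) and 8 below -0.5. Over 0.5 were 37.8% of the rest of chromosome 17 and 21.3% of all tested genes, and below -0.5 were 19.7% of all tested genes. With GC content and length trends removed the median was 0.44 over the 33 with annotated transcripts, which had 0.28 without that removal, and it was 0.51 for the 56. These other genes had lower levels, with a median over genes of 7.91 FPKM, against 18.6 FPKM for the 56. Among the 21 of them with a mean of at least 5 FPKM the median in pool 18 was 0.62, and among the 48 listed genes at that level it was 0.51. That mean includes resistant 18, so genes high in this library pass the limit more easily. The G protein gene GNGT2 had 19.1, 34.2 and 15.03 FPKM in resistant 17, 18 and 28, against 12.3, 12.4 and 9.44 FPKM in their controls, and the mitochondrial ATP synthase gene ATP5G1 had 121, 239.6 and 115 FPKM in resistant 17, 18 and 28, against 89.1, 112 and 84.8 FPKM in their controls. IFI35 (1.22), an interferon-induced gene, and MEOX1 (1.17) were also among the 5 highest in pool 18. The lowest was the homeobox gene HOXB2, listed at 0 in resistant 18, with 6.29, 0 and 3.10 FPKM in resistant 17, 18 and 28, against 1.59, 1.54 and 1.499 FPKM in their controls. The ribosomal protein gene RPL27 (-1.17), the chemokine receptor gene CCR10 (-0.84), the T-box gene TBX21 (-0.83) and COA3 (-0.80) followed. The list was chosen for high values in pool 18, so its share over 0.5 (28 of 56) and that of the other genes (14 of 39) are not compared by a test.

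Around the stretch, as inside it, genes lay on both sides of 0 in pool 18. The 3 tested genes before STAT5B differed in pool 18 by -0.77 (KAT2A), -0.31 (RAB5C) and 0.05 (GHDC), and the 3 after PHB by 0.63 (SPOP), 0.31 (SLC35B1) and -0.21 (FAM117A). Over the 20 tested genes on each side the medians were 0.14 before and 0.35 after. Over all 95 tested genes of the stretch, listed or not, the median was 0.34, close to that of the genes after it. Inside the stretch, medians of 11 consecutive tested genes ran from -0.05 around LSM12 to 0.70 around GPATCH8 in pool 18, and 84 of 85 such windows were above 0. These windows overlap and hold genes chosen for high values in pool 18, so the count is a description. Taken singly, 71.6% of the tested genes of the stretch were above 0 in pool 18, against 65.0% of the rest of chromosome 17. The medians of 11 consecutive genes ran from -0.22 to 0.44 in pool 17 and from -0.31 to 0.43 in pool 28. The 15 listed genes from STAT5B to VAT1 had a median of 0.44 in pool 18, the 23 from NBR1 to PLEKHM1 one of 0.45, and the 18 from KANSL1 to PHB one of 0.58.

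**Figure D3:**
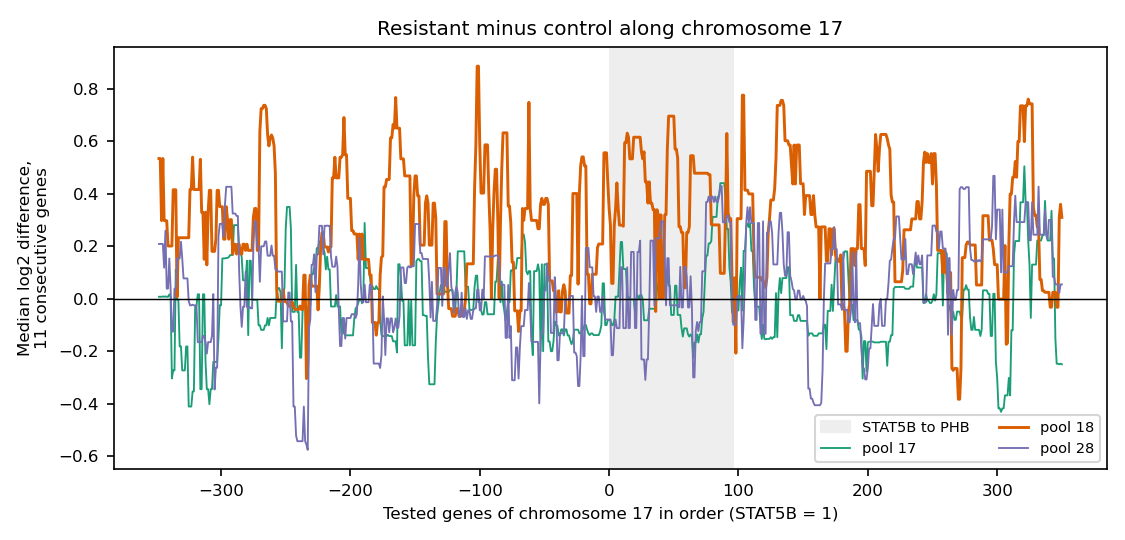
Median difference between resistant and control libraries (log2 scale) over 11 consecutive tested genes along chromosome 17, in gene order from STAT5B as 1, for the 3 pools; the grey band is the stretch from STAT5B to PHB. The pool 18 line is above 0 over most of the chromosome, inside and outside the band.

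The rest of chromosome 17 was also higher in resistant 18. Its 614 other tested genes had a median of 0.26 and 37.8% of them exceeded 0.5, against a median of 0.04 over the 10361 tested genes placed on other chromosomes. The genes before the stretch had a median of 0.24 and those after it one of 0.29. Among chromosomes 1 to 22 and X, chromosome 17 had the highest median in pool 18, 0.28, ahead of chromosome 2 at 0.16, and chromosome 8 the lowest at -0.17. In pools 17 and 28 the medians of chromosome 17 were -0.04 and 0.06. Differences in pool 18 went with GC content over all genes (Spearman -0.27 over 10380 genes), and the 56 genes had a median GC content of 54.3%, against 49.5%. After removal of the GC and length trends, chromosome 17 had a median of 0.34 in pool 18, the highest again.

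**Figure D4:**
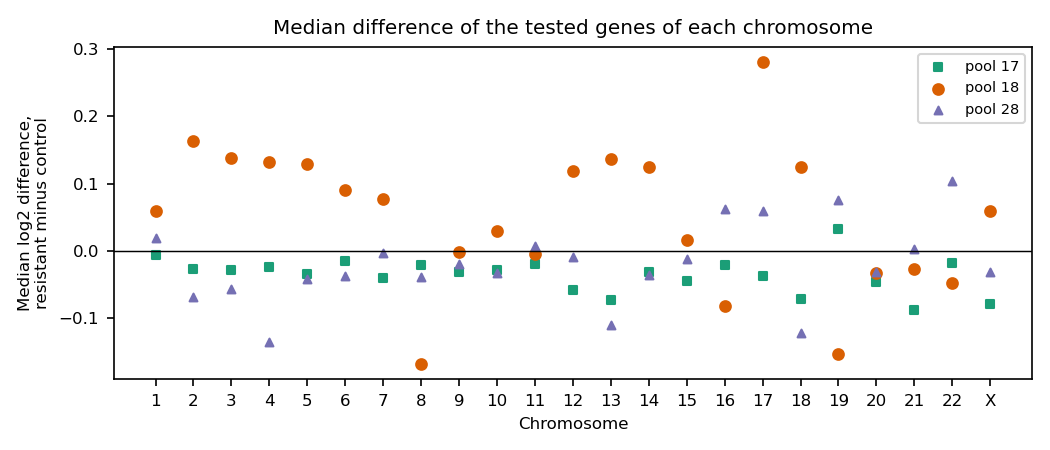
Median difference between resistant and control libraries (log2 scale) of the tested genes of each chromosome in pools 17, 18 and 28. Chromosome 17 has the highest point of pool 18, at 0.28, and chromosome 8 the lowest, at -0.17.

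Many of these proteins work in complexes with partners encoded elsewhere, and 20 lists of such partners were compared in pool 18. The 242 tested partner genes off chromosome 17 had a median of 0.10, with 51 above 0.5 (21.1%, against 21.3% of all tested genes) and 42 below -0.5 (19.7% of all tested genes). The 29 listed genes with a partner list had a median of 0.57, with 18 above 0.5. The listed genes were chosen for high values in pool 18 and the partners were not, so the choice itself sets the listed genes above their partners, and the values are given side by side as a description. With the median of every library set equal, the partners' median was -0.00057. SNF8 and VPS25 were at 1.31 and 0.76, and 16 other ESCRT genes had a median of -0.18 and 0 above 0.5. NSF and GOSR2 were at 1.19 and 0.58, and 12 other Golgi SNARE genes had a median of -0.10. TUBG1 was at 1.06, and 10 genes of the gamma-tubulin ring complex had a median of 0.13, down to -2.30 for MZT2B. PHB was at 0.94 and its partner PHB2, which had 422, 312 and 448 FPKM in resistant 17, 18 and 28, against 510.1, 519.6 and 473 FPKM in their controls, at -0.73. CDC27 was at 1.15, and 14 other genes of the anaphase-promoting complex had a median of 0.17, from -1.25 for ANAPC16 to 0.90 for CDC20.

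The 25 proteasome genes off chromosome 17, a target set of NFE2L1, had a median of 0.48, led by PSMA2, which had 121, 308 and 124 FPKM in resistant 17, 18 and 28, against 125, 125 and 125 FPKM in their controls. The 9 Polycomb partners of EZH1 had one of 0.51, with EZH2, the paralogue of EZH1, at 1.31 and PHF1 at -1.41. The 10 genes beside EFTUD2 and DHX8 in the U5 and helicase list had a median of 0.35, and the 7 beside MAP3K14 one of 0.41, with the inhibitor of apoptosis BIRC3 at 0.85 and NFKB2 at -0.79. In autophagy, 19 genes had a median of 0.10, with PIK3C3, the lipid kinase bound by BECN1, at 1.03 and MAP1LC3B, which coats autophagosomes, at -2.26. The 18 other JAK-STAT components had a median of 0.37, with IL2RG at -1.17, JAK3 at -0.83 and STAT4 at 0.74. All 8 tested STAT3 and STAT5 target genes off chromosome 17 were lower in resistant 18 than in control 18, with a median of -0.42. Over all tested genes 53.4% were higher in that pool. Of the 9 tested targets, SOCS3 lies on chromosome 17 and was higher, at 0.71. SOCS1, a feedback inhibitor induced by STAT proteins, had 16.9, 2.90 and 17.6 FPKM in resistant 17, 18 and 28, against 11.5, 12.04 and 11.5 FPKM in their controls, and the kinase gene PIM1 had 86.8, 33.4 and 45.6 FPKM in resistant 17, 18 and 28, against 53.5, 61.3 and 48.3 FPKM in their controls. Both were lowest in resistant 18, and in pool 17 both were higher in the resistant library.

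For the remaining lists, the median in pool 18 was 0.11 for 14 nuclear import genes beside KPNB1, with RANGAP1 at 1.34, and 0.13 for 15 proton pump genes beside ATP6V0A1, with ATP6V0C at -2.27. It was 0.19 for 11 RNA polymerase I genes beside UBTF, with TAF1A at 1.23. It was -0.01 for 8 NSL genes beside KANSL1, with KAT8 at 0.88, and 0.04 for 6 inner-membrane genes beside PHB. It was -0.05 for 6 genes of the P-TEFb and 7SK particle beside HEXIM1, with the kinase gene CDK9 at -0.55, -0.17 for 11 SAGA genes beside ATXN7L3, with TADA3 at 0.72, and -0.17 for 6 genes of the MLX network, with TXNIP at -0.95. Lysosomal enzymes and membrane proteins beside NAGLU and GRN had the median -0.38 over 17 genes, with the protease gene CTSD at -1.12.

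**Figure D5:**
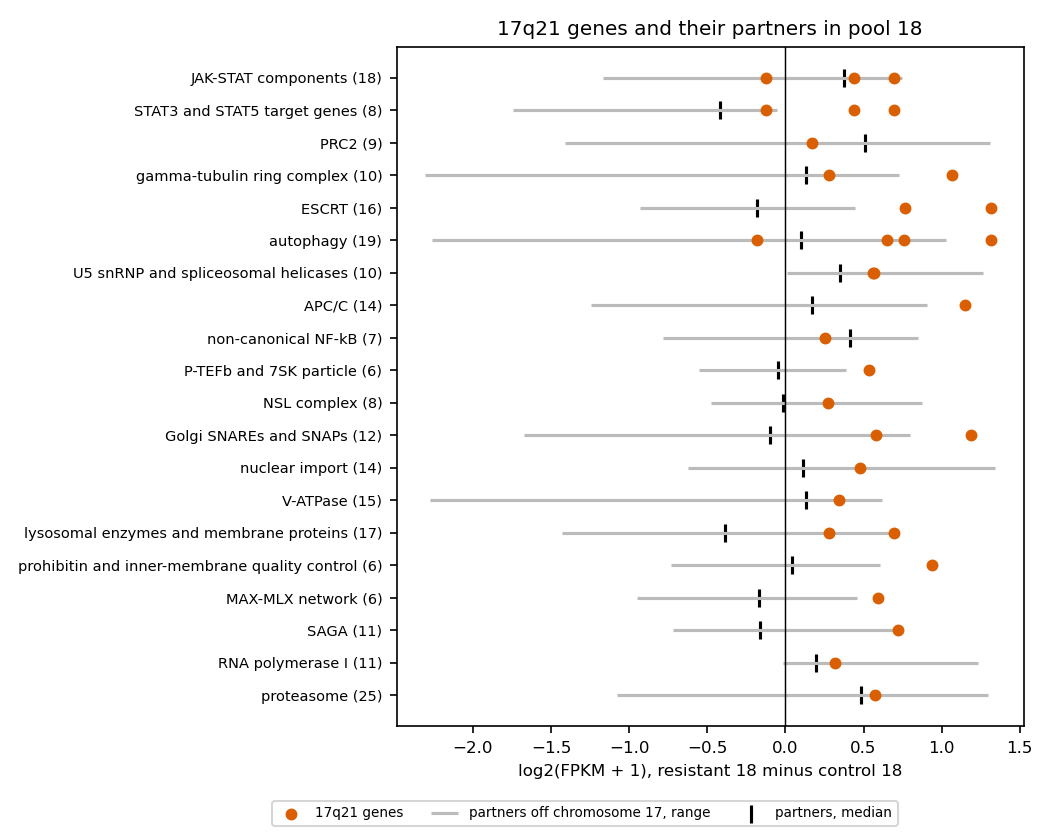
Difference between resistant 18 and control 18 (log2 scale) for listed 17q21 genes (points) and for their partner genes off chromosome 17 (line for the range, tick for the median), with the number of partners in brackets. The 17q21 genes were chosen for high values in this pool; their points lie right of the partner median in most lists, and left of it for EZH1, MAP3K14, PLEKHM1 and, among the JAK-STAT components, STAT3.

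Promoters are shown for the paralogues TUBG1 and TUBG2, whose pool 18 differences were 1.06 and 0.28, for 2 of the genes furthest above control 18, BECN1 and SNF8, and for the one furthest below, FMNL1. Each is 300 bases around the RefSeq start, most of them before it, 5′ to 3′ on the gene's strand, on GRCh38.p14, while the authors used hg19. TUBG1 is at chr17:42609433-42609732 on the plus strand, TUBG2 at chr17:42659034-42659333 on the plus strand, BECN1 at chr17:42823830-42824129 on the minus strand, SNF8 at chr17:48944793-48945092 on the minus strand and FMNL1 at chr17:45221635-45221934 on the plus strand. Capitals mark every match, on either strand, to GGGCGG (GC box), CCGGAAG (ETS core), CCAAT or TATAAA.
TUBG1: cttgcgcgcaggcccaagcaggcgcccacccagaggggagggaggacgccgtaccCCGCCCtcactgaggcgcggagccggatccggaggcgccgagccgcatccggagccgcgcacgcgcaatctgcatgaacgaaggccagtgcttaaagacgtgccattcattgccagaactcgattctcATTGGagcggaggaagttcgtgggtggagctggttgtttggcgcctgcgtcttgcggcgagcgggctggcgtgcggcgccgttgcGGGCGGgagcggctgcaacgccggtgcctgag
TUBG2: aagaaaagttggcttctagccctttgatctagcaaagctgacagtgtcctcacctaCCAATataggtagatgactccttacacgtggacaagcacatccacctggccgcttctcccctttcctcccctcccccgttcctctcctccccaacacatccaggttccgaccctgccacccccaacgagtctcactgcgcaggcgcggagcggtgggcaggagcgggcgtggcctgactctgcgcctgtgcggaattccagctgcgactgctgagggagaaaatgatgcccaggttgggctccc
BECN1: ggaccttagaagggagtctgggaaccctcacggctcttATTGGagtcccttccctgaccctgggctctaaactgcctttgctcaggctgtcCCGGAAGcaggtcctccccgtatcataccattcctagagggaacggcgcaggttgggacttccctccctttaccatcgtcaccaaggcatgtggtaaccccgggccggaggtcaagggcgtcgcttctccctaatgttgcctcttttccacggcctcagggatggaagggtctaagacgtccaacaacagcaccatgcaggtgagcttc
SNF8: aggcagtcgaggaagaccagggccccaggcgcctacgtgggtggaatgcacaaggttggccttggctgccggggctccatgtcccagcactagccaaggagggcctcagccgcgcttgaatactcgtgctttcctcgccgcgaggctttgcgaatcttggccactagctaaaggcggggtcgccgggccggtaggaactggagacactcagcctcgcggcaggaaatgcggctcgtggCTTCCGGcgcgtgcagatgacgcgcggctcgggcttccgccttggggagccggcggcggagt
FMNL1: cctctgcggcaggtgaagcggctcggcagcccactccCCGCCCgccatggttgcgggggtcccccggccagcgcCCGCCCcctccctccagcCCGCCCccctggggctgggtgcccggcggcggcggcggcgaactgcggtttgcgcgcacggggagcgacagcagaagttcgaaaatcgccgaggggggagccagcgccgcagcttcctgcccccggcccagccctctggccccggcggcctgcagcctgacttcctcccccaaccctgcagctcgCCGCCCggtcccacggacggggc
The TUBG1 window held 2 GC boxes and that of TUBG2 held 0, with 1 CCAAT match in each. FMNL1 held 4 GC boxes. BECN1 and SNF8 held 1 ETS core each, and BECN1 also 1 CCAAT match.

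Over the 49 tested genes of the stretch with a promoter in the RefSeq table, the motifs were about as frequent as over the 8808 tested genes with one. GGGCGG was in 65.3% of the 49, against 70.1% of the 8808, CCGGAAG in 24.5% against 21.6%, CCAAT in 42.9% against 37.9%, and TATAAA in 4.08% against 5.57%. The STAT motif TTCNNNGAA was in 6.12% against 6.36%, and the E-box CACGTG in 10.2% against 10.8%. Both strands were searched, and a match is a run of letters, not a bound site. Of the 27 genes above 0.5 in pool 18, 16 held GGGCGG and 7 held CCGGAAG, against 16 and 5 of the other 22. Across the 56 genes, the pool 18 difference had a Spearman correlation of 0.05 with the order along the chromosome, -0.17 with GC content and 0.23 with the mean level, given as descriptions.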

How the data were processed

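RNA was measured in 6 libraries. The authors deposited FPKM per gene symbol, per the file headers, written with decimal commas. The build was hg19. The submitters' processing notes list HTSeq (0.6.1), DESeq2, Cufflinks (2.2.1) and TopHat2 (2.0.4) without saying which tool made which value or on what annotation. No value was negative or missing. FPKM are not counts, so no count model was fitted, and intervals from counting were not computed.

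Differences were taken on log2(FPKM + 1), which shrinks those of low genes, for genes with at least 1 FPKM in at least 3 libraries. Tests used limma 3.58.1 in R 4.3.3 (two-sided, eBayes with trend), adjusted by Benjamini-Hochberg over every tested gene, and were checked on simulated data. Relative depth came from low values, where 59.4% to 65.5% of ratios to control 17 were ratios of small whole numbers within 0.02 on the log2 scale. Gene order and promoters came from RefSeq (GRCh38.p14), matched for 11070 of 11307 tested genes; GC content and length came from GENCODE v29, for 10380 (91.8%). Their trends were removed per library with loess of span 0.5. The design text names 3 pairs of pools. Deviations of same-numbered libraries from their group means correlated at 0.15, 0.09 and -0.02 in pools 17, 18 and 28. Those of differently numbered libraries ran from -0.21 (resistant 18 with control 17) to 0.17 (resistant 28 with control 17). Resistant 18 correlated at 0.12 with control 28. The members and lists were chosen with earlier results of these data known, and the cell cycle list after seeing the values. Full values are given for the 10 largest and 8 smallest pool 18 differences, for genes chosen by role and for those shown to explain a group. No label says that the pools were separate cultures, so the p-values reflect only how these samples vary, which may be technical.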

Additional observations from a re-analysis of the deposited data

How the results depend on the processing

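The median difference of the 17q21 genes in pool 18 was 0.51. It was 0.40 with a pseudocount of 5, 0.41 with library medians equal, 0.42 under quantile normalization, 0.38 against the mean of the controls, 0.43 against control 17, 0.45 against control 28, and 0.57 over the 38 genes with a mean of at least 10 FPKM, chosen after seeing the data. It was 0.52 with a pseudocount of 0.1, 0.48 without a filter and 0.51 with GC and length trends removed. These last shifts from the main value were smaller than 0.038, the SD over the 3 controls of the median deviation of these genes. The count above 0.5 (28 of 56) was 20 to 28 under the other scalings, filters and controls at that limit, 10 with a limit of 1, and 19 of 40 without genes that share sequence. Of 33 genes named, 27 kept their sign in pool 18 under all 9 alternatives. Equal library medians moved the share of higher calls among all genes beyond 0.5 in pool 18 to 41.7%, against 52.01% as deposited.

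In pools 17 and 28, 0 of the genes passed in limma under every alternative run, including without resistant 17 or 28 or control 17 or 28 (0 to 0), where the lone library is assumed to vary like the others and 3 to 19 had an unadjusted p under 0.05. The replicate block gave 0 as well, with 14 at an unadjusted p under 0.05; its smallest adjusted p was 0.118, or 0.0765 with GC and length trends removed. Over all genes in those pools, 18 passed, 25 with the replicate block, 7 with GC and length trends removed, 58 of 11455 with the filter taken over the 4 libraries, and 1 without a filter. Over all genes and 6 libraries, 4 passed in limma, 3 with the replicate block, 2 with GC and length trends removed, 0 with both (1578 of 10380 had an unadjusted p under 0.05), 18 without pool 18, and 3 to 13 with 1 library left out, the most without resistant 18, with 8 without resistant 17. Other genes of the stretch had a median of 0.15, which was 0.049 with library medians equal, 0.44 with GC and length trends removed, which left 33 of the 39 genes, 0.28 over those 33 without the removal (added after seeing the data), and 0.27 against control 28. The partner genes had 0.10, which turned to -0.00057 with library medians equal, and was 0.040 under quantile normalization, 0.0012 with GC and length trends removed and 0.12 against control 17. The causes were not tested. FPKM without counts limit what can be said of low genes such as TUBG2, DBF4B and HEXIM1.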

Other observations

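Partner genes that lie on chromosome 17 outside the stretch were left out of the comparison of partners. These 19 genes had a median of 0.53 in pool 18, and medians of -0.16 in pool 17 and 0.06 in pool 28. In pool 18, 10 of them (52.6%) were above 0.5, against 37.8% of the rest of chromosome 17 and 21.3% of all tested genes, and 3 were below -0.5, against 19.7% of all tested genes. All 6 proteasome genes among them were higher in resistant 18 than in control 18, as were 65.0% of the rest of chromosome 17 and 53.4% of all tested genes. PSMB3, a subunit of the catalytic core, had 246, 868 and 221 FPKM in resistant 17, 18 and 28, against 283, 304 and 337 FPKM in their controls, and PSMB6, which carries one of its active sites, had 162, 373 and 177 FPKM in resistant 17, 18 and 28, against 138, 139 and 96.5 FPKM in their controls. Resistant 18 was by far the highest library for both. PSMD11 and PSMD12, subunits of the regulatory lid, both differed by 1.03, PSMD3 by 0.84 and PSMC5 by 0.17. KPNA2, an importin that pairs with KPNB1, had 54.3, 143 and 49.2 FPKM in resistant 17, 18 and 28, against 60.8, 71.5 and 90.5 FPKM in their controls. USP22, the deubiquitinase anchored by ATXN7L3, differed by 0.53 in pool 18, the STAT target SOCS3 by 0.71 and the ESCRT-0 gene HGS by 0.74.

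Not all genes of the chromosome went that way. ANAPC11, the ring finger subunit of the anaphase-promoting complex, had 75.8, 45.8 and 94.4 FPKM in resistant 17, 18 and 28, against 97.8, 108 and 90.5 FPKM in their controls, the sulfatase gene SGSH differed by -1.01 in pool 18, and PRPF8, the largest protein of the U5 particle, by -1.07, -0.27 and -1.66 in pools 17, 18 and 28. These genes were listed as partners and not for their place on the chromosome, and their differences in pool 18 rest on 1 library a group and were not tested.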
